A study of Mus musculus with 10 samples.

Results

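The samples described here are the gonadal somatic cells of 5 female mouse embryos whose mothers received vitamin C, 5 of the 10 samples in the series. They were taken from the treatment label, and no measured value was used to choose them. Every embryo was homozygous for the Gulo deletion (Gulo-/-) on a C57BL/6 background and was collected at embryonic day 13.5. Gulo encodes the last enzyme of vitamin C synthesis, so these mice depend on the diet for the vitamin, and here the maternal diet supplied it at physiological levels. Oct4- cells were sorted from the gonads, which removes Oct4-expressing germ cells and leaves the somatic fraction. A total RNA library was then made from 2 ng of RNA per embryo with the Clontech SMARTer pico v2 kit. The embryos are named by their titles, C1F1, C2F1, C2F2, C3F2 and C4F2, and groups of 5 values below follow that order. The design text calls them single embryos and biological replicates. C2F1 and C2F2 share their first title number, and the labels do not say whether they are litter mates. The other 5 embryos of the series carried the same genotype and came from mothers from which the vitamin was withdrawn. Only the spread of the same genes in them is given, at the close, and no group comparison was made.

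Levels are rlog values, the regularised log2 counts that DESeq2 produces, and 1 unit is a 2-fold difference. The scale pulls weakly expressed genes towards their mean, and it does not correct for gene length. Levels of different genes were therefore compared only after subtracting log2 of the exon length in kb. Each protein coding gene was given its percentile on this per-kb scale among 13001 protein coding genes. The depth behind each value is unknown. With 1 group there is no group test, and an exact two-sided test of 1 gene against another within 5 embryos cannot give p below 0.0625. The order of genes was therefore read from the 5 values, and neighbours whose values overlapped between embryos were treated as not separated. In bulk RNA, fewer cells of a type and less RNA per cell cannot be told apart.

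The fetal ovary forms from the coelomic epithelium and mesenchyme over the mesonephros. Its supporting cells become pregranulosa cells, a state held by the transcription factor FOXL2 and by WNT4 and RSPO1 signalling through beta-catenin, whereas supporting cells of the testis take the SOX9 route to Sertoli cells. Around the supporting cells lie NR2F2-expressing stroma, vessels, macrophages and a surface epithelium, and the neighbouring mesonephric tubules and sympathetic ganglia can be carried along when a gonad is dissected. Collagens, laminins and proteoglycans form the matrix between these cells. Vitamin C is a cofactor of the hydroxylases that stabilise collagen and of TET and JmjC demethylases.

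The 3 genes used to check the label were all present. Foxl2, the forkhead factor of ovarian supporting cells, had rlog values of 9.71, 9.36, 9.46, 9.52 and 9.63, which is 9.53 ± 0.135 (SD, n = 5) and the 66.5th percentile per kb. Wnt4, the secreted ligand of the ovarian pathway, stood higher at the 95.1st percentile, with values of 12.14, 12.11, 12.21, 12.07 and 12.08. Nr5a1, the nuclear receptor also called SF1 and needed for gonad formation, was at the 89.8th percentile with 11.38, 11.42, 11.35, 11.18 and 11.52. Per kb, Wnt4 was above Nr5a1 and Nr5a1 above Foxl2 in every embryo, with no overlap of the 5 values. Pou5f1, which encodes Oct4, and 9 other germ cell genes, Dazl, Ddx4, Dppa3, Sox2, Stra8, Sycp3, Mael, Dppa5a and Utf1 had no row under these symbols. Neither had Gulo, nor the 4 Y-linked genes looked for. The 7 germ cell genes with a row had a median percentile of 13.03 and none was in the top quartile. The highest of them was Rec8, a meiotic cohesin, at the 71.2nd percentile with 9.50, 9.65, 9.64, 9.55 and 9.85. Kit, a receptor that somatic cells can also express, followed at the 42.1st percentile.

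The highest rlog values mixed noncoding RNAs and mRNAs. Rn45s, the ribosomal RNA precursor, had a mean of 20.87. Lars2, the mitochondrial leucyl-tRNA synthetase, reached 19.26 and the nuclear long noncoding RNA Malat1 17.56. H19, the imprinted RNA beside Igf2, stood at 16.48 and Xist, the X inactivation RNA, at 14.67. Lower noncoding genes included Mir5109, Rprl3, Rpph1 and 2900097C17Rik, at 13.98, 13.77, 13.61 and 13.33, of which Mir5109 had no type in the annotation. These values are not per length, and several of these genes have no exon length in the annotation.

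Per kb, the 20 highest protein coding genes included 10 ribosomal protein and elongation factor genes. Ribosomal protein genes took 8 places, Rplp1, Rpl23a, Rpl29, Rplp0, Rpl36, Rpl8, Rps3a and Rps6, at 14.81 to 13.52 per kb. The elongation factors Eef1a1 (15.01) and Eef2 (13.74) were among them, as were the actins Actb (14.13) and Actg1 (13.86) and the chaperones Hsp90ab1 (15.05) and Hspa8 (13.68). Ptma, Tpt1 and the replication histone Hist2h2bb were at 14.65, 13.53 and 13.75. The leading gene, Gm20594 at 16.15, shares 42 of its 419 words of 31 bases with mt-Rnr2, the mitochondrial large ribosomal RNA gene, so its reads are uncertain. Lars2, next at 15.79, shares none of 11160 such words with either mitochondrial ribosomal RNA. Nuclear ribosomal RNA was not compared, so the source of the Lars2 reads was not tested and its level is uncertain too. Hbb-y, the embryonic beta-type globin, followed at 15.29, in a sort aimed at gonadal somatic cells. All 38 ribosomal protein genes of the list used here were in the top quartile, against 25% of all 13001 genes, with a median percentile of 99.4.

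Growth genes expressed from 1 parental copy were nearly as high. Of 13 protein coding imprinted genes ranked, 12 were in the top quartile and the median percentile was 98.2. Igf2, the fetal growth factor, was at 13.45 per kb and the 99.8th percentile, Cdkn1c, an inhibitor of cyclin-dependent kinases, at 12.90, and Peg3, a zinc finger protein, at 12.34. Mest, at 12.34, Dlk1, a non-canonical Notch ligand, at 11.22, and Plagl1, a zinc finger factor, at 10.65 ranked at the 99.4th, 98.4th and 97.4th percentiles. Sgce was the lowest, at the 27.3rd percentile. The wider IGF pathway followed Igf2, with 12 of 15 members in the top quartile. Its binding proteins Igfbp5 (13.21), Igfbp4 (12.09), Igfbp3 (11.16) and Igfbp2 (11.10) stood above the receptors Igf2r (10.35) and Igf1r (9.03), Igfbp6 (8.04) was below both, and Igf1 was the lowest at 7.59. Igf1 was also among the steadier genes, with an SD of 0.0307 (0.0187 without C2F1).

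Pregranulosa genes ranked high. Of 20 pregranulosa genes ranked, 12 were in the top quartile and the median percentile was 83.1. Esr2 had no row under its symbol. Among the ligands and secreted factors were Wnt4 at 10.05 per kb, Kitl, the KIT ligand made for germ cells, at 9.99, Rspo1, the R-spondin that potentiates WNT signalling, at 9.36, Fst, the activin antagonist follistatin, at 8.78, and Bmp2 at 8.04. Kitl had rlog values of 12.60, 12.56, 12.60, 12.43 and 12.60, with C3F2 the lowest. Ctnnb1, which encodes beta-catenin, was the highest of all 20 genes at 11.57 and one of the steadiest, with 13.96, 13.94, 13.95, 13.95 and 13.92. Of the WNT target genes, Nkd1 was at 10.02 and Axin2 at 9.64, whereas Lef1, at 8.18, was below the top quartile. The WNT receptor-side genes were also lower than Nkd1 and Axin2, with Fzd1 at 8.72. The ubiquitin ligases Znrf3 and Rnf43, which remove WNT receptors, were at 7.11 and 6.67, and Lgr5, a receptor for R-spondins, at 6.00.

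Lgr5 varied most within that list, with rlog values of 9.41, 9.02, 9.35, 9.39 and 9.65 and an SD of 0.223. C2F1 was the lowest embryo and C4F2 the highest, and without C2F1 the SD was 0.133. Fzd1 was next, with 10.76, 10.57, 10.83, 11.10 and 10.67, where C3F2 stood above the rest. Of the transcription factors, Irx3 (9.43 per kb) was well above its cluster neighbour Irx5 (5.43), and Runx1 (7.62) overlapped Foxl2 (7.83). Of the 19 neighbouring pairs in this order, 11 overlapped between embryos, so much of the list falls into blocks rather than a strict order. Ctnnb1 stood clear at the top, then came Wnt4, Nkd1 and Kitl together, and Znrf3, Rnf43, Lgr5 and Irx5 were separated from each other at the bottom.

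**Figure D1:**
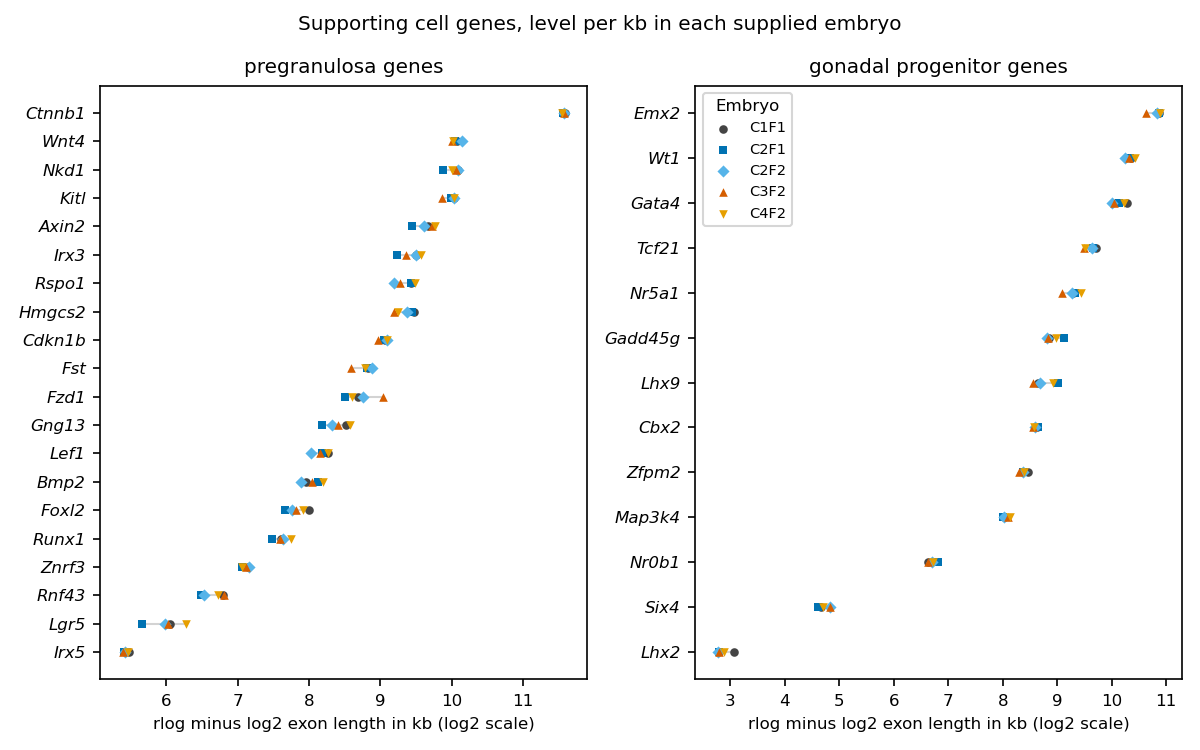
Level per kb (rlog minus log2 exon length in kb, log2 scale) of every pregranulosa (left) and gonadal progenitor (right) gene with a row, with 1 marker per supplied embryo and a grey line over the 5 values. Ctnnb1 at 11.57 and Emx2 at 10.81 lead their lists, and Lgr5, at 6.00, has the widest line among the pregranulosa genes.

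The factors of the early gonad were at similar levels. Of 13 progenitor genes ranked, 9 were in the top quartile and the median percentile was 83.2. Emx2, a homeobox factor of the urogenital epithelium, led with 12.45, 12.45, 12.41, 12.21 and 12.47, or 10.81 per kb. Its values in 4 embryos lay within a few hundredths of each other, and C3F2 was lower (SD 0.107, or 0.0243 without C3F2). Wt1, the Wilms tumour zinc finger factor, followed at 10.34 per kb and overlapped Gata4 at 10.14. Tcf21 was at 9.60, Nr5a1 at 9.29, Lhx9 at 8.76 and Cbx2, a Polycomb component, at 8.60. Lhx9, a LIM homeobox factor of the coelomic epithelium, had 11.89, 12.26, 11.94, 11.80 and 12.16, the largest spread of the list (SD 0.192). Its high embryos were C2F1 and C4F2. Nr0b1 (6.70), Six4 (4.72) and Lhx2 (2.86) were the low members, and Lhx2, at the 3.0th percentile, is close to the floor of the scale.

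Genes of the testis route were mostly low. Of 18 Sertoli-type genes listed, 11 had a row, and Sry, Amh, Dhh, Ptgds, Cst9, Tesc and Defb19 had none under these symbols. The ranked genes had a median percentile of 18.99, and none was in the top quartile. Sox9 was the highest at 7.98 per kb and the 69.3rd percentile, with 10.05, 9.90, 10.14, 10.09 and 9.94. Per kb it overlapped Foxl2, at 7.83, across the embryos. Mesonephric ducts and cartilage precursors are also known to express Sox9. Col2a1, the cartilage collagen, was at 4.54, and which cells gave the Sox9 values was not tested. Fgf9 (6.25), the retinoic acid-degrading enzyme Cyp26b1 (6.19), Sox8 (5.10) and Dmrt1 (4.59) were lower, and Erbb4 was at the bottom at 1.66.

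Stromal genes had the highest median percentile of the 13 cell-type lists, close to the progenitor (83.2) and pregranulosa (83.1) lists. All 21 had a row, the median percentile was 85.5 and 14 were in the top quartile. Dlk1 (11.22 per kb) and Nr2f2 (11.04), an orphan nuclear receptor of the interstitium, overlapped at the top, followed by the PDGF receptors Pdgfrb (10.11) and Pdgfra (10.08), which also overlapped. The matrix genes Lum and Dcn were at 9.42 and 9.11. The Hedgehog effectors Gli3, Gli2 and Gli1 stood at 8.91, 8.55 and 8.35. Hhip, a Hedgehog antagonist, was the lowest at 4.83.

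Other cell types stood lower. Surface epithelium genes had a median percentile of 69.2 over 10 ranked genes, with 5 in the top quartile. Aldh1a2, which makes retinoic acid, led at 11.23 per kb, then the keratins Krt18 (10.40), Krt8 (9.69) and Krt19 (8.77) and the mesothelial uroplakin Upk3b (8.44). Krt19 was steady, with an SD of 0.0242, whereas Gpm6a was low at 4.47. Endothelial genes had a median of 37.2, with 3 of 19 in the top quartile: Cdh5, the cadherin of endothelial junctions, at 8.72, Kdr, a VEGF receptor, at 8.52, and Eng at 8.28. Perivascular genes had a median of 47.4 (1 of 9 in the top quartile, Notch3 at 8.72), macrophage genes 39.9 (0 of 15) and steroidogenic genes 38.5 (1 of 8).

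C1qb, a complement component of macrophages, was the highest of its list at the 62.1st percentile, and Ptprc, the pan-leukocyte antigen, the lowest at the 3.2nd. Of the steroidogenic list, Por, a general reductase, was in the top quartile at 9.07. Star, the cholesterol carrier, was at 4.95, with rlog values of 6.91, 7.16, 6.90, 6.98 and 7.01, and Cyp11a1, Cyp17a1, Cyp21a1, Cyp11b1, Lhcgr and Insl3 had no row under these symbols. Mesonephric genes had a median of 39.8 over 12 genes, and Emx2, which the gonad shares, was the single member in the top quartile. Epcam, of tubule epithelium, was at 8.14, the tubule factor Pax8 at 7.21 and Pax2 at 6.71. Erythroid genes split, with a median of 29.2 and 5 of 11 in the top quartile. The globins Hbb-y (15.29) and Hba-x (13.39) and the red cell genes Alas2 (9.56), Hbb-bh1 (9.31) and Slc4a1 (8.90) were high, while the factors Klf1 (5.92), Gata1 (4.34) and the receptor Epor (4.38) were low. Neural genes were at a median of 27.3 over 10 genes, and Hand2 at 9.36, which mesenchyme also expresses, was the single one in the top quartile.

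**Figure D2:**
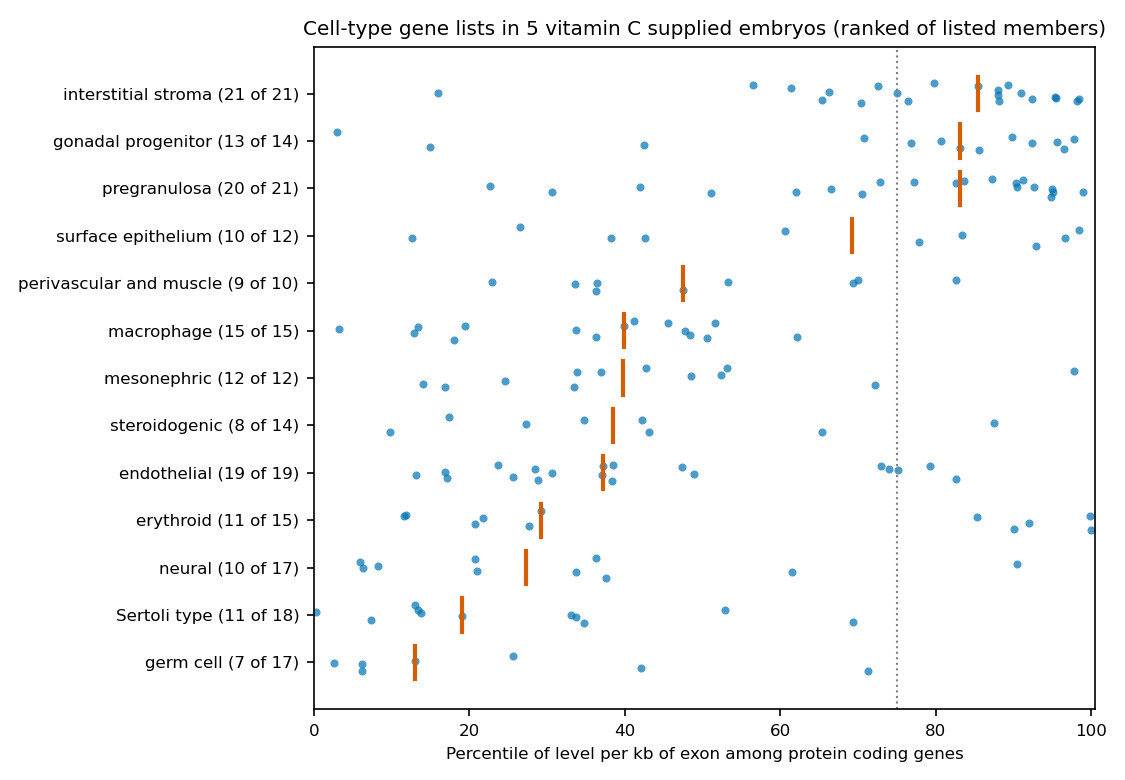
Percentile of level per kb among 13001 protein coding genes, with 1 point per gene, for 13 cell-type lists (genes ranked of genes listed in brackets). Orange bars are list medians, from 85.5 for interstitial stroma to 13.03 for germ cells, and the dotted line marks the top quartile at 75.

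Transcription factor families were ranked as groups, with lists drawn up after the values had been seen. Among 12 Sox genes, Sox12 (10.82 per kb), Sox4 (10.64) and Sox11 (10.07), the SoxC group of progenitor cells, were the 3 in the top quartile, above Sox13 (8.004) and Sox9 (7.98). Of 6 Gata genes, Gata4 (10.14), Gata2 (9.70) and Gata6 (8.68) were in the top quartile, and Gata3, Gata5 and Gata1 were at 6.20, 5.94 and 4.34. The TALE cofactors of homeobox proteins had 6 of 15 there, among them Irx3 (9.43) and Meis1 (9.13). T-box and bHLH factors had 5 of 9, namely Tbx2 (9.92), Tcf21 (9.60), Tbx3 (9.44), Hand2 (9.36) and Twist1 (9.13).

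Hox genes had 5 of 29 in the top quartile, a share below the 25% of all genes. Hoxc8 was the highest at 8.84 per kb, then Hoxa5 (8.60), Hoxc6 (8.52), Hoxd10 (8.31) and Hoxc10 (8.29), and Hoxd11 was the lowest at 4.09. Of 21 forkhead genes, 4 were in the top quartile, Foxp4 (9.72), Foxk2, Foxk1 and Foxm1, and 8 of them, with Foxp4 at the head, stood above Foxl2 at 7.83. Nuclear receptors had 7 of 30 there, with Nr2f2 (11.04), Thra (9.52), Nr5a1 (9.29), Rara (9.17) and Rxra (8.84) in the first places. The oestrogen receptor gene Esr1 was lower at 6.25, and the progesterone receptor gene Pgr was at 2.48.

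Signalling pathways differed in how much of their machinery ranked high. WNT signalling had 16 of 24 genes in the top quartile and a median percentile of 88.9. Beside the supporting cell genes these included the antagonists Sfrp1 (10.71 per kb) and Sfrp2 (9.77), the ligands Wnt6 (9.82) and Wnt5a (9.23), and the receptors Fzd2 (9.24), Fzd7 (9.16) and Lrp6 (9.17). Wif1, another antagonist, was the lowest at 3.96. Hedgehog signalling had 7 of 11, with the co-receptors Gas1 (10.47), Boc (9.87) and Cdon (9.18) and the transducer Smo (9.89) above the receptor Ptch1 (7.36). The ligands Shh, Ihh and Dhh had no row under these symbols.

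Retinoic acid genes had 6 of 14 in the top quartile. The synthesis gene Aldh1a2 (11.23), the binding protein Crabp1 (9.51) and the receptors Rara and Rxra led, and Aldh1a3 was the lowest at 5.40. BMP and activin genes had 7 of 21, in which the transducers Smad5 (10.14) and Smad4 (9.61) and the target genes Id2 (9.64), Id3 (9.61) and Id1 (9.42) were at the head. The ligands Bmp2 (8.04), Inhbb (7.61), Bmp4 (7.42) and Inhba (6.11) were lower, as were the transducer Smad1 (7.55) and Id4 (6.42). Notch genes had 3 of 14, the receptors Notch2 (9.88) and Notch3 (8.72) and the target Hes1 (8.42). The ligands Jag1, Dll4, Jag2 and Dll1 were at 7.90, 4.86, 4.23 and 3.88. Genes of vitamin C uptake and of vitamin C-dependent enzymes had 9 of 19 there, led by the histone demethylases Kdm4a (9.72) and Kdm3a (9.59) and the prolyl hydroxylases Egln1 (9.19) and P4ha1 (8.90). The DNA demethylases ranked in the order Tet3 (8.45), Tet2 (7.47) and Tet1 (7.03), and the ascorbate transporter Slc23a2 was at 7.10, while Slc23a1 had no row under its symbol.

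The matrix lists ranked about as high as the stromal one. Fibrillar and associated collagens had a median percentile of 85.6, with 8 of 13 genes in the top quartile. Col1a1, the chain of type I collagen, was the highest at 12.96 per kb and the 99.7th percentile, with rlog values of 15.77, 15.46, 15.60, 15.90 and 15.67. Col3a1, the type III chain, followed at 12.60 with 16.01, 15.75, 15.92, 16.00 and 15.81. In both, C2F1 was the lowest embryo. Col1a2 (11.50) and Col5a1 (10.95) came next, and only 3 of 12 neighbouring pairs overlapped, so the order of the collagens was clearer than that of the supporting cell genes. The cartilage chains Col2a1 (4.54) and Col11a2 (3.70) and Col5a3 (2.32) were at the bottom.

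Basement membrane genes had a median of 88.8, with 13 of 21 in the top quartile. The type IV chains Col4a1 (10.77) and Col4a2 (10.33), nidogen Nid1 (10.31), perlecan Hspg2 (10.26) and the laminin chains Lamc1 (10.23) and Lamb1 (10.19) stood within a narrow band, and 12 of 20 neighbouring pairs overlapped. Of the laminin alpha chains, Lama1 was at 9.19, Lama5 at 8.19, Lama4 at 7.48, Lama2 at 5.99 and Lama3 at 3.64. The kidney-type chains Col4a4 (2.86) and Col4a3 (1.55) were the lowest of the list per kb.

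Matrix glycoproteins had a median of 86.4 and 16 of 23 genes in the top quartile. The microfibril protein Mfap2 (11.57) and Sparc (11.55) overlapped at the top, followed by Sparcl1 (10.89), fibronectin Fn1 (10.82), Emilin1 (10.71) and fibrillin Fbn2 (10.29). Elastin, Eln, was lower at 6.47, the crosslinking enzyme Lox at 6.34 and Fbln5, an elastic fibre protein, at 6.10. Proteoglycans had a median of 86.0 and 11 of 17 genes in the top quartile. The glypican Gpc3 led at 12.63, well above versican Vcan (10.35), Gpc4 (9.83), Lum (9.42), Bgn (9.23) and Dcn (9.11), and Ncan, a neural proteoglycan, was at 2.61.

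**Figure D3:**
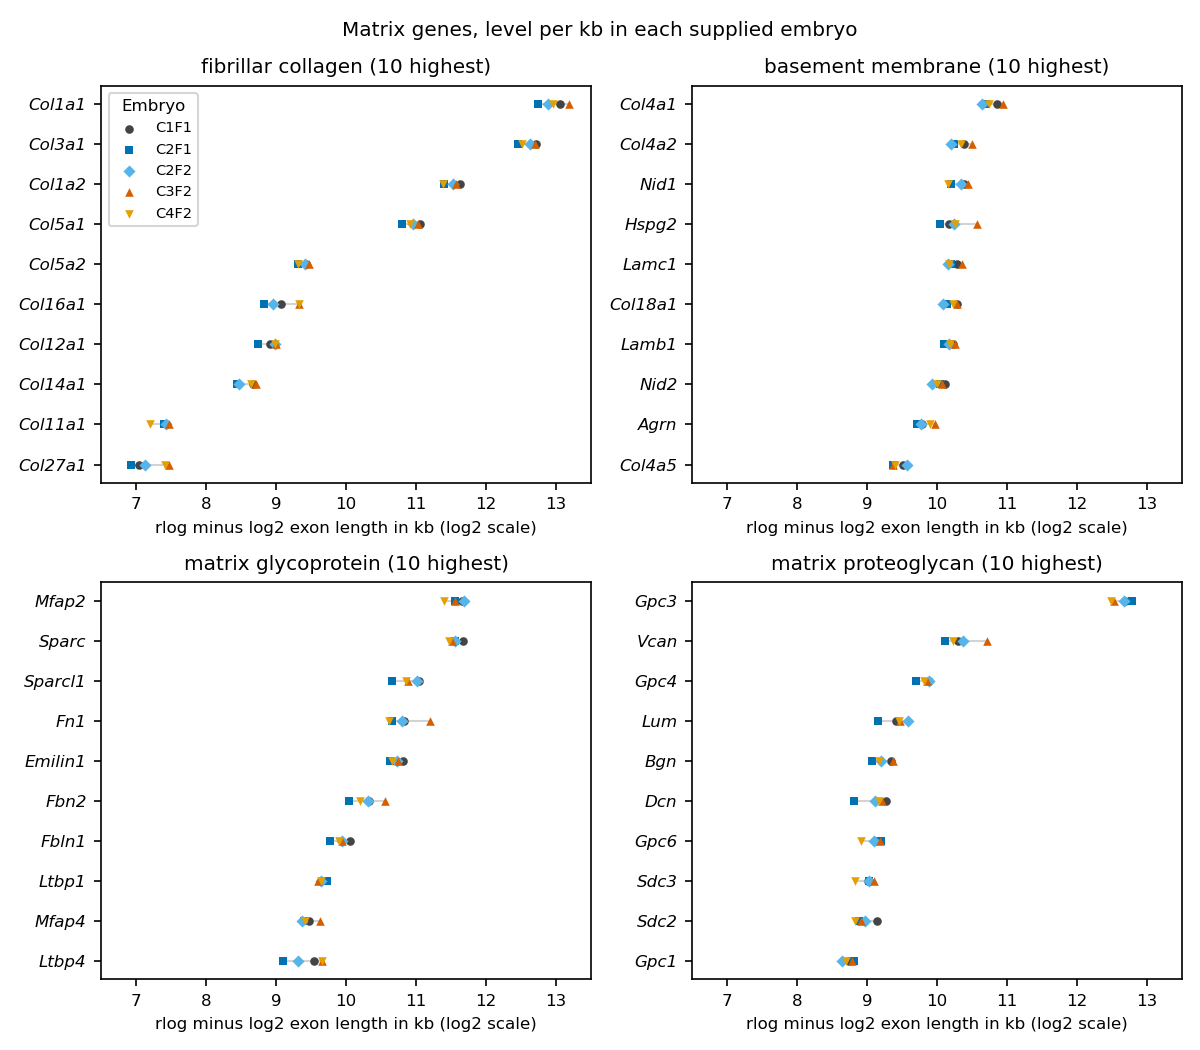
Level per kb (rlog minus log2 exon length in kb, log2 scale) of the 10 highest genes of each of 4 matrix lists, with 1 marker per supplied embryo. Col1a1 (12.96), Col3a1 (12.60) and Gpc3 (12.63) stand above the rest, and C2F1 is the leftmost marker for Col1a1, Col3a1, Hspg2 and Vcan.

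Proliferation genes ranked high too. Of 24 proliferation genes, 17 were in the top quartile, with Mki67 (11.03), Mcm6 (10.51), Mcm3 (10.47) and Mcm4 (10.31) at the head, and the list mean differed by no more than 0.045 between embryos. Replication histones, in a list drawn up later, had 48 of 55 ranked genes in the top quartile. These histone genes are near-identical copies, so reads may be split between them and single values are uncertain. Of 13 heat shock genes, 10 were in the top quartile, but the inducible pair Hspa1a (5.07) and Hspa1b (5.35) was not.

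Most genes differed little between the 5 embryos on this shrunken scale. Sample medians ran from 9.12 to 9.13, but the values are normalized between samples, so near-equal medians do not measure likeness. The median SD over 13578 genes was 0.0704, its quartiles were 0.0504 and 0.0955, and the median gene differed 1.13-fold between its lowest and highest embryo. An SD of 0.5 or more was reached by 21 genes, or 0.155%, and an SD of 0.2 or more by 253 genes. The median SD was 0.0495 among 2587 genes with a mean below 7 and between 0.0706 and 0.0778 in every higher class, so spread was also set against a trend of SD on mean level. The closest pair was C3F2 and C4F2, with a median absolute difference of 0.0630, followed by C2F1 and C2F2 (0.0660), which share a title number. The farthest was C2F1 and C4F2 (0.0822). The first principal component held 47.1% of the variance and put C2F1 (8.67) and C2F2 (5.93) on one side and C3F2 (-8.45) and C4F2 (-7.12) on the other, with C1F1 (0.97) between. Chgb, Dgkk, Rgs4 and Nefm were the genes with the largest positive weights on it.

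**Figure D4:**
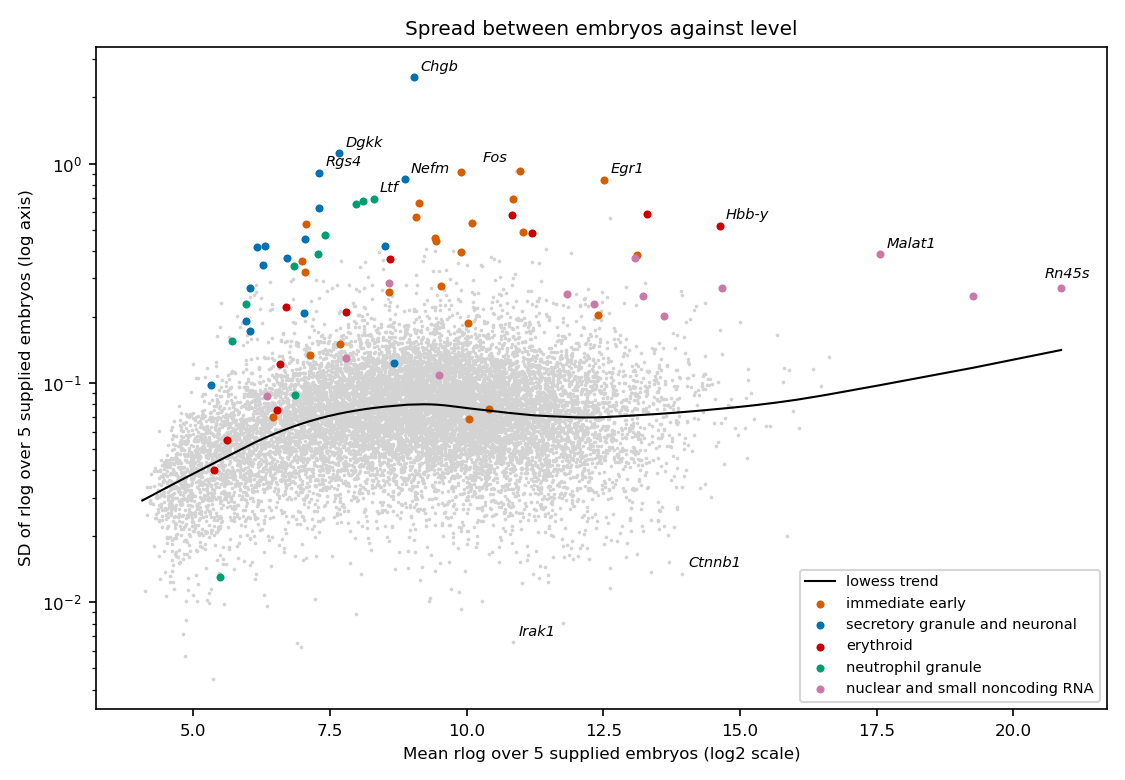
SD over the 5 supplied embryos (log axis) against mean rlog (log2 scale) for 13578 genes in grey, with the lowess trend in black and 5 gene lists in colour. Chgb, at an SD of 2.48, stands alone at the top, and Irak1, at 0.00658, and Ctnnb1, at 0.0135, lie far below the trend.

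Chgb varied more than any other gene. It encodes chromogranin B, a protein of the secretory granules of neuroendocrine cells and sympathetic neurons. Its rlog values were 8.36, 12.42, 10.76, 6.86 and 6.82, a 48.6-fold range on this shrunken scale, with an SD of 2.48 (n = 5) that is 31.03 times the trend at its level. C2F1 and C2F2, the embryos with the same title number, were the highest, C1F1 was intermediate and C3F2 and C4F2 were at the bottom. Dgkk, a diacylglycerol kinase, followed the same order with 7.11, 9.14, 8.58, 6.81 and 6.72. Rgs4, a regulator of G protein signalling in neurons, had 6.93, 8.44, 8.13, 6.54 and 6.52, and Nefm, a neurofilament chain, had 8.39, 10.10, 9.42, 8.25 and 8.19. In all 4 genes C2F1 was the highest and C4F2 the lowest. Since Chgb leads this group, the 250 bases before its start are shown (RefSeq, GRCm38.p6, chr2:132781392-132781641, plus strand, 5′ to 3′). Capitals mark the cAMP response element TGACGTCA, 72 bases before the start. In the promoter windows described below, Dgkk and Rgs4 held no such match, and Nefm had no window. Of all genes with windows, 2.03% held this element, and a match describes the letters only.
Chgb: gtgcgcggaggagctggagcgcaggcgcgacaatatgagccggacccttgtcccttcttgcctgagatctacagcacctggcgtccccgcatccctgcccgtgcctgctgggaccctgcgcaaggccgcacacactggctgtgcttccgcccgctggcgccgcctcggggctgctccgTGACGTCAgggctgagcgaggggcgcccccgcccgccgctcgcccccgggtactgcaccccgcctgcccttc

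The neural list as a whole moved with Chgb. Its mean deviated from the 5-embryo mean by -0.22, 0.72, 0.29, -0.37 and -0.43, and 7 of its 10 genes were highest in C2F1, against 20.4% of all genes. Genes without a row under their symbols included Phox2a, Th, Chga, Dbh and Sox10, which mark sympathetic neurons, adrenal medulla and glia. A list drawn up after the values had been seen around Chgb held other neuronal and secretory genes, such as Nfasc (SD 0.624), Nefl (0.454), Syp (0.420), Tubb3 (0.418) and the amine transporter Slc18a2 (0.343), all highest in C2F1. Most of them were weak, with a median percentile of 9.45 over its 17 genes. Stmn2, a neuronal tubulin regulator, had 8.53, 8.78, 8.81, 8.57 and 8.68, a smaller spread (SD 0.123) with C2F2 the highest. Hand2, a bHLH factor of sympathetic precursors and mesenchyme, had 10.43, 11.17, 10.70, 10.45 and 10.24, and Zdbf2, an imprinted zinc finger gene, had 10.86, 11.90, 11.30, 10.85 and 10.76. Nrk, a protein kinase, had 11.74, 12.51, 12.04, 11.72 and 11.51. Hand2, Zdbf2 and Nrk were highest in C2F1 and lowest in C4F2. The part of neural cells in these values was not tested.

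Immediate early genes, which are induced within minutes by growth factors, stress or cell handling, formed the next group. Of 24 genes with a row, 21 were in the top decile of SD over trend, which holds 10% of all genes, and 21 were highest in C3F2, against 20.3% of all genes. The list mean deviated by -0.16, -0.21, -0.28, 0.69 and -0.04. Fos, a subunit of the AP-1 factor, had 10.50, 10.64, 10.26, 12.58 and 10.88, a 5.01-fold range. Its partner Jun had 12.97, 12.88, 12.88, 13.79 and 13.06. C3F2 was the highest in both, clear of the other 4 embryos, and without C3F2 the SD of Fos fell from 0.929 to 0.261.

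The zinc finger factor Egr1 had 12.02, 12.12, 11.90, 13.95 and 12.63, and Egr2 had 6.80, 6.78, 6.73, 7.997 and 7.001. Cyr61, a secreted matricellular protein, had 10.60, 10.48, 10.30, 12.03 and 10.87. In these 3 genes C3F2 was again the highest and C4F2 second, and C2F2 was the lowest. Genes that end the response were also highest in C3F2: Zfp36, which destabilises mRNAs, had 9.69, 9.65, 9.69, 10.59 and 9.89, the phosphatase gene Dusp1 had 9.16, 9.29, 9.24, 10.23 and 9.28, and the antiproliferative Btg2 had 9.82, 9.75, 9.76, 11.02 and 10.13. Myc, with an SD of 0.0684, Fosl2 (0.0763) and Ier3 (0.0702) were the 3 members outside the top decile. Immediate early transcripts were thus high in 1 embryo, and when that embryo was left out, 8 of the 20 most variable genes, Btg2, Cyr61, Egr1, Egr2, Fos, Fosb, Junb and Nr4a1, left the first 20.

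Of the 24 immediate early genes, 19 had a promoter window (250 bases before to 50 after the start) in RefSeq. The windows were searched on both strands for the CArG box bound by serum response factor, the cAMP response element TGACGTCA and the AP-1 site TGANTCA. TGACGTCA does not match TGANTCA, so the searches do not overlap. A CArG box was found in Zfp36 and Egr2, a share of 10.5% of the 19 genes against 1.81% of all genes with windows. The cAMP response element was found in Dusp1 and Btg2, again 10.5%, against 2.03%, and the AP-1 site in 0 of 19 against 8.97%. A match describes the letters only, and the counts are small. These 4 are shown because they hold the matches, each as the 250 bases before the start, 5′ to 3′ in GRCm38.p6, with the match in capitals. Zfp36 is at chr7:28379229-28379478, minus strand, Egr2, 1 of its 5 windows, at chr10:67537316-67537565, plus strand, Dusp1 at chr17:26508473-26508722, minus strand and Btg2 at chr1:134079156-134079405, minus strand. The matches begin 58, 72, 143 and 166 bases before the start.
Zfp36: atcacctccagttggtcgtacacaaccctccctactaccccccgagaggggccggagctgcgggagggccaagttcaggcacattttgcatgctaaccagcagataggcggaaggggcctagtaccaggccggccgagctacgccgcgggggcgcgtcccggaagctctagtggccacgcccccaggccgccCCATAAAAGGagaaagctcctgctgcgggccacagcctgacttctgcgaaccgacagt
Egr2: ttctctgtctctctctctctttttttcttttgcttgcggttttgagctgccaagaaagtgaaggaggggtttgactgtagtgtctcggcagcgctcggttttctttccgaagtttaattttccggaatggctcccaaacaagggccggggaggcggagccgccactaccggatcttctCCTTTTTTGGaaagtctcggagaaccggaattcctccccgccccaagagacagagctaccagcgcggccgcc
Dusp1: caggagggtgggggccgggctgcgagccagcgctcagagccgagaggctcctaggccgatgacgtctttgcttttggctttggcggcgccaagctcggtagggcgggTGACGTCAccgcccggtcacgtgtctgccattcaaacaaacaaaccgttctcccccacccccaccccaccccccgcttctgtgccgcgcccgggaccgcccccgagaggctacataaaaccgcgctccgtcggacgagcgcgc
Btg2: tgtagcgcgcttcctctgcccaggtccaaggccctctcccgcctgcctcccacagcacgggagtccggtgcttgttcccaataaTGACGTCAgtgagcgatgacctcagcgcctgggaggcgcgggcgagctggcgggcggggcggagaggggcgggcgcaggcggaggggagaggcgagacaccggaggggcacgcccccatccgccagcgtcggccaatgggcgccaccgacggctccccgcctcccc

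Blood genes varied in 2 patterns. Embryonic globins were highest in C2F2: Hbb-y had 14.00, 14.33, 15.37, 14.86 and 14.59 and Hba-x, the zeta chain, 12.66, 13.30, 14.25, 13.17 and 13.10. C1F1 was the lowest in both, and without C2F2 the SD of Hba-x was 0.281 in place of 0.587. Alas2, the erythroid enzyme of haem synthesis, had 10.10, 10.33, 11.38, 11.35 and 10.98, and Slc4a1, the red cell anion exchanger, 10.51, 10.97, 11.80, 11.33 and 11.35. Beta-s, an adult beta globin now named Hbb-bs, had another order, with 10.41, 9.66, 10.94, 12.09 and 11.39 and its maximum in C3F2. The globins are close copies of each other, so the split of reads between them is uncertain. Hba-a1, Hba-a2, Hbb-b1 and Ahsp had no row under these symbols. Over the 11 erythroid genes the mean deviated by -0.34, -0.11, 0.39, 0.05 and 0.01.

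Neutrophil granule genes made a second blood pattern, in a list drawn up after the values had been seen. Ltf, lactoferrin, had 8.50, 8.32, 9.34, 7.70 and 7.65, the peroxidase Mpo 8.13, 8.29, 9.09, 7.76 and 7.28, and Ngp 8.16, 8.08, 8.94, 7.42 and 7.33. C2F2 was the highest and C4F2 the lowest in all 3, and without C2F2 the SD of Ltf was 0.433 in place of 0.693. All 10 genes of the list were highest in C2F2, against 19.6% of all genes, and their mean deviated by 0.05, 0.04, 0.56, -0.28 and -0.37. The macrophage list differed less, by 0.00, 0.03, 0.13, -0.06 and -0.10, with 10 of 15 genes highest in C2F2. Lyz2, which both cell types express, had 7.51, 7.63, 7.93, 7.32 and 7.25. The share of blood cells in each sort is not in the labels, and its part in these values was not tested.

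Several nuclear and small noncoding RNAs were higher in C3F2 and C4F2 than in the other embryos. Malat1 had 17.18, 17.43, 17.30, 17.76 and 18.13, Rn45s 20.58, 20.72, 20.74, 21.19 and 21.13, and Xist 14.59, 14.40, 14.46, 14.998 and 14.92. The small nucleolar RNA Snord15b had 12.51, 11.98, 12.19, 13.14 and 13.24 and the imprinted Meg3 12.69, 13.07, 12.78, 13.31 and 13.59. In each of these 5 RNAs both embryos were above the other 3. Others had another order: Lars2 was highest in C2F2, with 19.04, 19.003, 19.61, 19.37 and 19.29, Terc, the telomerase RNA, was highest in C2F1, and Snord17 had 9.93, 9.25, 9.43, 9.90 and 10.23. Over the 13 genes of the list, which include Lars2 and Snhg11, annotated as protein coding, the mean deviated by -0.23, -0.10, -0.09, 0.18 and 0.24, and 7 of the 13 were highest in C4F2, against 21.4% of all genes. Over 64 small nucleolar and Cajal body RNAs, a list drawn up later, it deviated by -0.08, -0.06, -0.01, 0.07 and 0.09. Ribosomal protein genes were ordered the other way, with 0.02, 0.05, 0.08, -0.04 and -0.11, and so were 17 housekeeping genes, with 0.04, 0.06, 0.04, -0.04 and -0.10. H19 was lowest in the same pair, with 16.58, 16.52, 16.55, 16.38 and 16.37.

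The means of the matrix, stromal and Hedgehog lists formed a shallower axis between C2F1 and C3F2, which not every member followed. The basement membrane list deviated by 0.03, -0.11, -0.06, 0.12 and 0.02, fibrillar collagens by 0.02, -0.11, -0.02, 0.11 and -0.01, and Hedgehog signalling by 0.03, -0.14, -0.04, 0.12 and 0.03. In each, C2F1 was the lowest and C3F2 the highest, and 13 of 21 basement membrane genes were highest in C3F2, against 20.3% of all genes. Of the matrix glycoproteins 11 of 23 were highest in C3F2, whereas some, such as Postn and Tnc, were highest in C2F1. Of the proteoglycans 4 of 17 were highest in C3F2, close to the share of all genes. Fibronectin, Fn1, had 14.38, 14.20, 14.35, 14.75 and 14.16, perlecan, Hspg2, 14.02, 13.88, 14.08, 14.41 and 14.09, and versican, Vcan, 14.16, 13.97, 14.22, 14.57 and 14.09. Without C3F2 their SDs were 0.109, 0.0967 and 0.109, in place of 0.232, 0.195 and 0.225. Fn1 was lowest in C4F2 rather than C2F1, and Gpc3 did not follow, with 14.11, 14.21, 14.09, 13.95 and 13.91. Among Hedgehog genes the movement lay in the target genes. Gli1 had 10.62, 10.32, 10.55, 11.01 and 10.84 and Ptch1 11.25, 10.90, 11.03, 11.59 and 11.16, whereas the effector Gli3 had an SD of 0.0629 (0.0208 without C2F1). C3F2 is also the embryo of the immediate early genes, and their part in these values was not tested.

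Several developmental regulators varied between embryos as well. Hoxa10 had 8.59, 8.05, 8.66, 8.92 and 8.16, an SD of 0.363, and Foxc1 9.35, 9.88, 9.33, 9.36 and 8.98. Sfrp2, the WNT antagonist, had 11.00, 11.15, 11.14, 10.67 and 10.44, and Tbx3 12.21, 11.83, 12.24, 12.49 and 12.07. They did not share an order: Hoxa10 and Tbx3 were highest in C3F2 and lowest in C2F1, and Foxc1 and Sfrp2 were highest in C2F1 and lowest in C4F2. Of the mesonephric list, 9 of 12 genes were in the top decile of SD over trend, against 10% of all genes. Gata3, a duct factor, had 7.88, 8.70, 8.13, 8.18 and 8.07, and Epcam 9.34, 8.95, 9.27, 9.51 and 9.28. C2F1 was thus the highest embryo for Gata3 and the lowest for Epcam. Without C2F1 the SDs of Gata3 and Epcam were 0.131 and 0.108, in place of 0.305 and 0.202. Pax8, Pax2, Lhx1, Cdh16, Cldn6, Cldn7 and Wnt9b were also lowest in C2F1, whereas Ret was highest there. C2F1 is also the embryo of the neural genes, and which cells gave the Gata3 and Ret values was not tested. In the perivascular list Rgs5, a pericyte gene, had 7.56, 7.98, 7.89, 7.40 and 7.37.

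**Figure D5:**
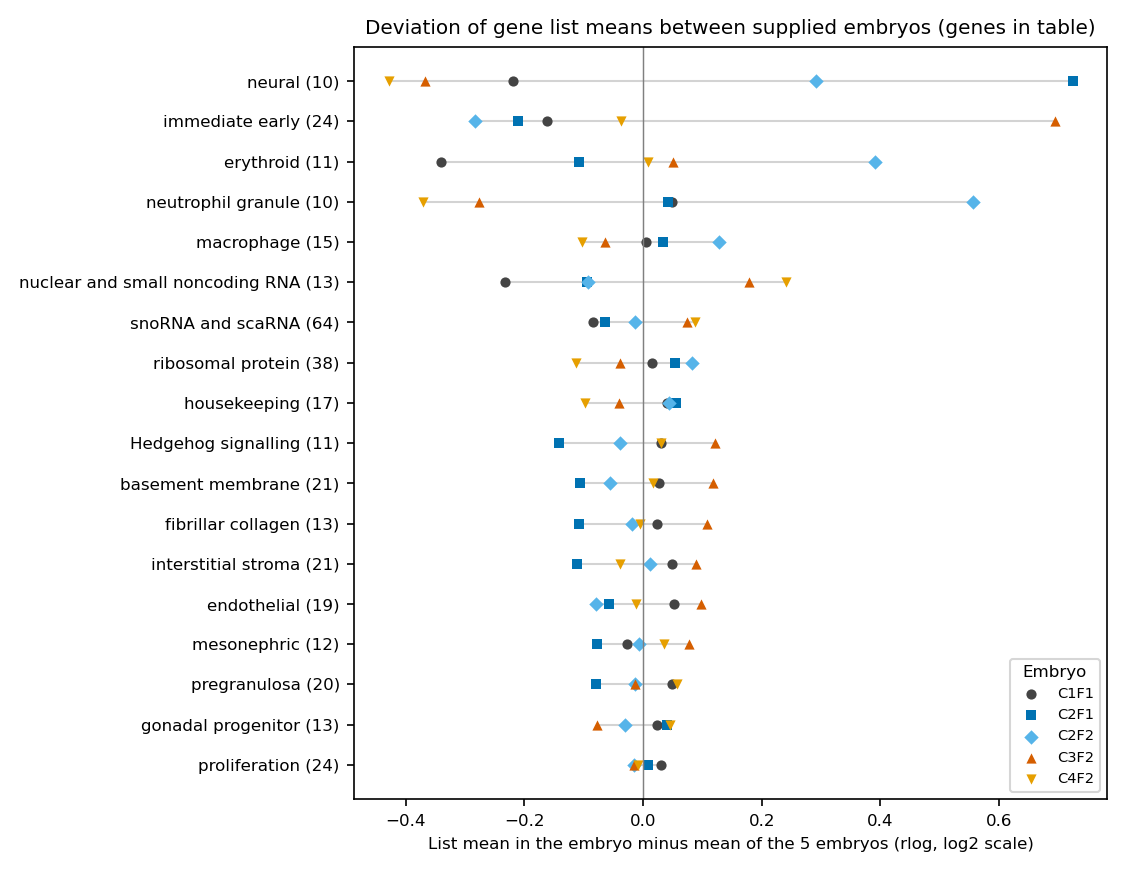
Mean of each gene list in each supplied embryo minus the mean over the 5 embryos (rlog, log2 scale), with the number of genes with a row in brackets. Neural genes reach 0.72 in C2F1, immediate early genes 0.69 in C3F2 and neutrophil genes 0.56 in C2F2, whereas the mean of the 24 proliferation genes ranges over 0.045.

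The means of the supporting cell lists ranged over 0.138 (pregranulosa) and 0.123 (progenitor) between embryos. The same range was 0.215 for fibrillar collagens, 0.109 for proteoglycans and 0.045 for proliferation genes. Pregranulosa means deviated by 0.05, -0.08, -0.01, -0.01 and 0.06 and progenitor means by 0.02, 0.04, -0.03, -0.08 and 0.05. Single genes varied more: the median SD of the pregranulosa genes was 0.116, and 6 of 20 were in the top decile of SD over trend, against 10% of all genes. Among genes above the median in mean level, the smallest SD against the trend belonged to Irak1, a kinase of interleukin-1 and Toll-like receptor signalling, with an SD of 0.00658 around 10.84. Smarca1, the chromatin remodeller SNF2L, had an SD of 0.00804 around 11.77, and Arl1, a Golgi GTPase, 0.00932 around 9.91. The 15 steadiest genes also included Ptpn12, a tyrosine phosphatase, Pbrm1, a subunit of the PBAF remodelling complex, Setd7, a lysine methyltransferase, Mark3, a kinase, and Tor1a, an endoplasmic reticulum ATPase. None of the 15 is a cell-type marker of the lists used here. Which genes were steadiest depended on the embryos, since 6, 2, 8, 7 and 4 of the 15 were kept when C1F1, C2F1, C2F2, C3F2 and C4F2 were left out in turn.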

How the data were processed

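RNA was measured in 5 supplied and 5 withdrawn embryos, grouped by the treatment label. The table the authors deposited gives 13578 genes as rlog values on the log2 scale. The submitters' processing notes name mm9, DESeq2 1.20.1, TopHat2 2.1.1 and Trim Galore 0.4.0, without their roles. The counting program, annotation and use of strand are not given in the sources used here. The rlog scale keeps no depth, and no counting interval is given. Exon lengths, gene types and current symbols came from GENCODE M21 (GRCm38), which matched 13431 genes, 1107 of them by an older symbol. Genes of at least 300 bases of exon were ranked. Means, SDs, a lowess trend of log SD on mean (fraction 0.3) and principal components of gene-centred values were computed in Python 3.11.15 with pandas 2.3.3 and statsmodels 0.14.6.

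On simulated data for the spread between the supplied embryos, with 13578 genes, 99% of 100 genes given an 8-fold larger SD and 96% of 100 given 0.1 of it were recovered among the first 100. The 15 steadiest genes observed had 0.0905 to 0.181 of the trend SD. Whether genes of ordinary spread reach such ratios by sampling alone was not tested, so the simulation does not show that these genes are truly steadier. The members, the 31 gene lists and the 12 added ones were chosen with earlier results of these data known. Named genes were the 3 markers, the leading and steadiest genes of each ranking, the 4 highest, the lowest and the most variable member of each list, and every pregranulosa and progenitor gene. Some genes that this rule names are not reported here, and other genes named were chosen after their values were seen. Alternatives left out each embryo, averaged C2F1 and C2F2, centred or quantile normalized the columns, required a mean of 7, and changed the length, background or measure of spread.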

Additional observations from a re-analysis of the deposited data

Results flagged for a closer look

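Of 87 genes and 43 gene lists checked for 1 embryo standing apart, 8 genes and 1 list passed Dixon's critical value of 0.71 for 5 samples (the gap to the nearest embryo divided by the range). Chance flags about 1 in 20 groups, and over all 13578 genes 4.72% passed. Several of the 87 genes were named for their spread over these same values, so that rate does not apply to them. C3F2 was the highest embryo for Fos (0.732), Fosb (0.740), Zfp36 (0.737), Dusp1 (0.880) and Egr2 (0.788), and for the mean of the immediate early list (0.749). That list holds these same genes, so the flags are not independent. C3F2 was the lowest embryo for Kitl (0.757) and Emx2 (0.774), genes of the supporting and progenitor lists. C2F1 was the lowest for Gli3 (0.711).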

How the results depend on the processing

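No paired analysis was possible because the results describe 1 group and come from no test. The median SD of 0.0704 ran from 0.0677 to 0.0695 when 1 embryo was left out, was 0.0755 over genes with a mean of at least 7 and 0.0647 with C2F1 and C2F2 averaged. The count of genes with an SD of at least 0.5 stayed between 16 and 26 without 1 embryo. Without length correction 9 of the 20 highest genes were shared with the per-kb ranking, and leaving out 1 embryo kept 19 to 20. Of the 20 most variable genes, 12 to 19 were kept without 1 embryo, with 12 without C3F2, and 9 were kept by median absolute deviation. Of the 15 steadiest, 2 to 8 were kept without 1 embryo, 5 after quantile normalization and 3 with C2F1 and C2F2 averaged. The largest distance between embryos was 0.0907 over genes with a mean of at least 7, and 0.0808 to 0.0822 without 1 embryo. The first component held 49.98% to 57.5% of the variance without 1 embryo. The number of lists with a median percentile of at least 75 was 15, and 15 to 17 under every setting tried. Without length correction single lists moved by up to 21.4 percentage points (macrophage). The cause of these changes was not tested.

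Depth is unknown and the scale is shrunken, so differences of weak genes are understated, and low percentiles are read as an order only.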

Other observations

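In the 5 embryos from mothers without vitamin C, the same genes were looked up for their spread only, and no group comparison was made. The median SD over all genes was 0.0693 there. Among the immediate early genes, Fos had an SD of 1.07 and Fosb 1.16. Among the neuronal and secretory genes, Chgb had an SD of 0.120, with values from 6.84 to 7.10, Dgkk 0.113, Rgs4 0.0819, Nefm 0.154 and Nfasc 0.0828. The 15 genes that were steadiest in the supplied embryos had a median SD of 0.0588 there, and 10 of the 15 were below 0.0783, the median over all genes above the median in mean level.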
